A study of Homo sapiens with 63 samples.

Results

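Cisplatin was added to 9 small cell lung cancer (SCLC) cell lines that also received veliparib at 5 µM, and the combination (C+5) was set against veliparib at 5 µM alone (A5) within each line. The 18 arrays of these 2 conditions, of 63 arrays in the series, were chosen by their titles. The C+5 arrays were from 6 H lines and 3 DMS lines, all named with their doses below, with cisplatin and veliparib, and the A5 arrays were the same lines with veliparib and no cisplatin, so both groups carried the PARP inhibitor. Cisplatin was given at the IC50 of each line, the concentration that inhibits growth midway, which was 4.3 µM for H69, 14.5 µM for H128, 5.2 µM for H146, 1.7 µM for H187, 14.2 µM for H209, 0.4 µM for H526, 12.5 µM for DMS53, 8 µM for DMS114 and 4.7 µM for DMS153. The remaining conditions were cisplatin alone (C+0), vehicle (Con), cisplatin with veliparib at 50 µM (C+50), veliparib at 50 µM (A50) and radiation of 2 Gy (Rad), with a single array for each line and condition. The comparison asks what cisplatin changed in the mRNA of cells that also received the PARP inhibitor.

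Cisplatin is a platinum drug that forms crosslinks within and between DNA strands; its lesions block DNA and RNA polymerases and activate the ATR and ATM checkpoint kinases. Veliparib inhibits PARP1 and PARP2, the enzymes that mark DNA breaks with chains of ADP-ribose. Transcripts of the G1/S genes accumulate late in G1 under E2F factors, and those of the mitotic genes accumulate from late S phase to mitosis. These statements are background and not results of these arrays.

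Each array measured 47217 probes, of which 19158 to 22330 were detected at p under 0.05 on the C+5 arrays and 19441 to 21633 on the A5 arrays. The test ran on the 25399 probes detected on at least 4 of the 18 arrays, and counts of genes used 1 probe for each of 13629 genes. Values are log2 signals after quantile normalization, and a change is the log2 signal with C+5 minus that with A5. The replicate is the cell line, so the p-values measure the spread between these 9 lines, each with a single array per condition. In such bulk RNA, fewer cells in a phase of the cycle and less RNA per cell cannot be told apart. Of 18 neuroendocrine markers, 12 to 18 were detected on both arrays of every line; DMS114 had INSM1, a neuroendocrine transcription factor, undetected and VIM, an intermediate filament of mesenchymal cells, at a log2 signal of 13.80 with C+5, against 7.19 to 9.05 in the other lines, and 6 of 10 fibroblast markers detected. PTPRC, the pan-leucocyte antigen, was detected on none of the 18 arrays, while 2 to 4 of 11 leucocyte markers were detected on both arrays of every line. According to the study's methods, the repeat profile of H128 did not match the reference of that line, and values without H128 are given below.

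Cisplatin on top of 5 µM veliparib lowered genes of mitosis and genes of great genomic length, and raised fewer genes, among them genes of the G1/S transition. Of the 25399 probes, 210 were called at an adjusted p under 0.05 in limma; 57 were higher with C+5 (0.224% of those tested) and the others lower (0.602%). Over the genes, 42 were higher (0.308%) and 117 were lower (0.858%), and 88 of these 159 genes moved the same way in 9 of 9 lines. Among the 159 were 64 genes with several probes. All probes changed in the same direction in 56 of the 64, and 2 or more probes were called in 10. All called changes were small: the largest fall at the gene level was 1.32-fold and the largest rise was 1.19-fold, and the threshold of the study's methods, p under 0.01 before adjustment and 1.5-fold or more, was met by 0 probes. The count depended on single lines. It was 21 probes without H128, 47 without DMS114, 69 without DMS153, 99 without DMS53 and 139 without H69, and 183 to 307 without any other line. With each array scaled to one median in place of quantile normalization, 401 probes were higher and 57 lower, and with background correction from the detection p-values (neqc) 1 probe was called.

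AURKA, the aurora A kinase of the spindle poles, fell most. Its log2 signal ran from 9.29 through a median of 9.87 to 10.52 with C+5 and from 9.72 through 10.21 to 10.64 with A5, so the groups overlapped because the lines differ in level, but every line was lower with C+5. The mean was 9.80 ± 0.39 with C+5 and 10.21 ± 0.31 with A5 (SD, n = 9 each), a change of -0.40 (SE 0.048, limma adjusted p = 0.0017). The fall was 0.60 in DMS114, 0.59 in DMS153, 0.56 in DMS53 and 0.51 in both H128 and H146, and it was smallest in H187, at 0.11. The second AURKA probe changed by -0.36 (limma adjusted p = 0.0051).

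CENPA, the histone H3 variant of centromeres, had a mean log2 signal of 8.63 ± 0.48 with C+5 and 9.02 ± 0.32 with A5 (SD, n = 9 each), a change of -0.39 (SE 0.056, limma adjusted p = 0.0051). The change in the lines lay between -0.81 in DMS53 and -0.06 in H187. KIF20A, a kinesin of cytokinesis, changed by -0.39 and TOP2A, the topoisomerase that untangles sister chromatids, by -0.31; both were lower in 8 of 9 lines and slightly higher in H187, by 0.05 and 0.17. CENPE, the kinetochore kinesin, changed by -0.29, CDCA3, a trigger of mitotic entry, by -0.29 and CENPF, a kinetochore protein, by -0.27. CDC20, the activator of the anaphase-promoting complex, changed by -0.24 (limma adjusted p = 0.019) and CCNA2, cyclin A2, by -0.22 (adjusted p = 0.025), each in 9 of 9 lines.

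**Figure D1:**
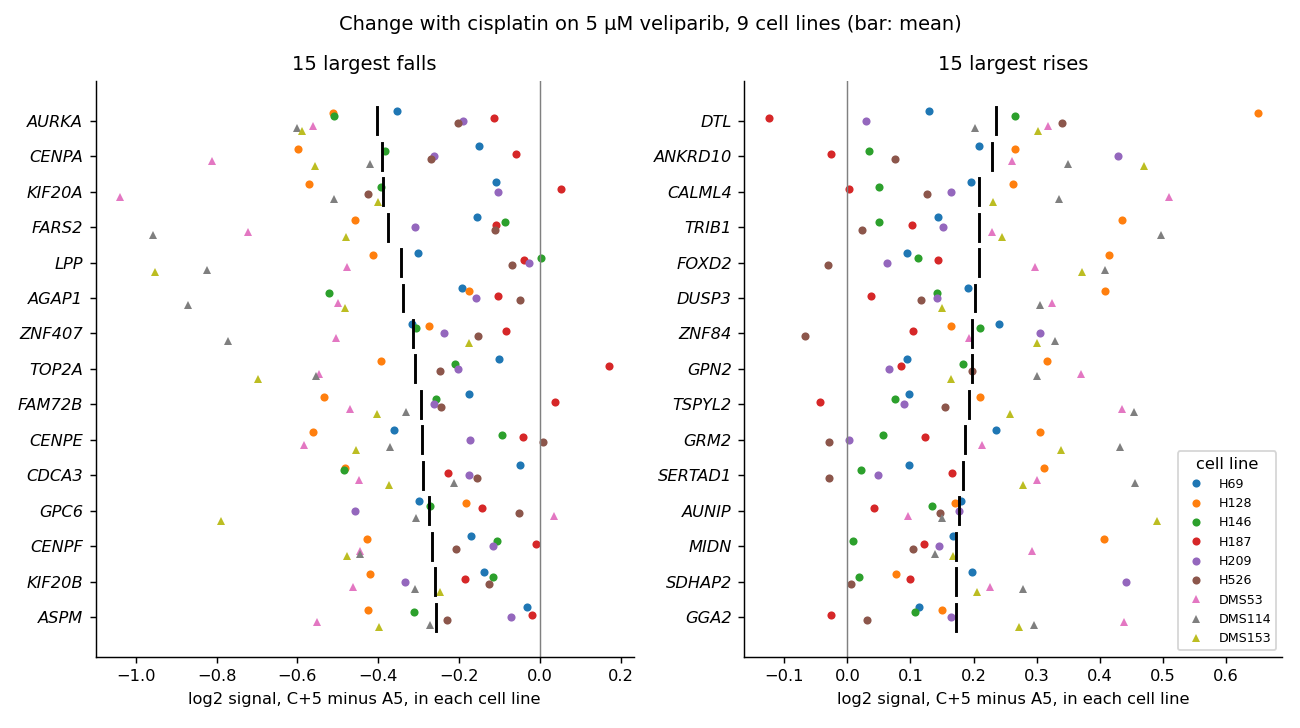
Change in log2 signal, C+5 minus A5, of the 15 genes with the largest fall (left) and the 15 with the largest rise (right) among called genes with one direction in 8 or 9 lines; points are the 9 cell lines (circles H lines, triangles DMS lines) and bars are the means. The triangles and the orange circles of H128 tend to lie farthest from 0 and the red circles of H187 nearest to it, with AURKA at -0.60 in DMS114 and -0.11 in H187.

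Of the 76 genes of the mitosis list, 74 were measured; 27 fell, none rose and 47 did not pass the test. That is 36.5% of the list lower, against 0.858% of all genes. The median change of the list was -0.16, against 0.00 over all genes, and the change was below 0 in 73 of the 74. The median was below 0 in every line, from -0.37 in DMS53 and -0.23 in H128 to -0.01 in H187. Without H128, 5 members fell, and without DMS114 and DMS153 10 and 16 did. The list was chosen with earlier results of these arrays known, so its direction is a description. The kinases PLK1 (-0.20, limma adjusted p = 0.045) and AURKB (-0.19, adjusted p = 0.019) and the checkpoint kinases BUB1 (-0.22, adjusted p = 0.028) and TTK (-0.24, adjusted p = 0.010) were among those that fell. Some central members did not pass: CCNB1, cyclin B1, had a change of -0.16 (adjusted p = 0.12), HMMR, a spindle protein, one of -0.27 (adjusted p = 0.096) with 6 of 9 lines lower on its brighter probe (its other probe passed, at -0.22 with adjusted p = 0.013), and FOXM1, a transcription factor of the mitotic genes, one of -0.01 (adjusted p = 0.97).

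Promoters of mitotic genes often hold a cell cycle homology region (CHR, the letters TTTGAA or TTCGAA) near the start, downstream of CCAAT letters, which are known as the contact points of the DREAM and MYB-MuvB complexes and of NF-Y. The windows from 250 bases before to 50 bases after the start, from RefSeq on GRCh38.p14, were searched on both strands. Of the 27 mitosis genes that fell, 23 had a window; 78.3% of these held CHR letters and 82.6% CCAAT letters, against 17.1% and 35.4% of all 27305 windows of the table. Both together stood in 69.6% of the 23 windows, against 6.77% of all windows. The same letters were found in 75% and 73.4% of the 64 windows of all measured mitosis genes, so these letters were common in the list as a whole. CENPA (chr2:26785806-26786105, plus strand), TOP2A (chr17:40417847-40418146, minus strand) and CDCA3 (chr12:6851237-6851536, minus strand) are shown because they are the 3 with the largest falls among the called genes with both, and capitals mark the CHR and CCAAT letters on either strand.
CENPA: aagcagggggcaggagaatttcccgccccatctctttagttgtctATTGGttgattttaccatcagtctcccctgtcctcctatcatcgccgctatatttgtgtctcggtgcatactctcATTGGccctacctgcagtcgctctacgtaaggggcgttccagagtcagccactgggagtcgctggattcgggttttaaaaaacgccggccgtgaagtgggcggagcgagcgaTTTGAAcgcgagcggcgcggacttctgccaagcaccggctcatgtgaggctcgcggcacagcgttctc
TOP2A: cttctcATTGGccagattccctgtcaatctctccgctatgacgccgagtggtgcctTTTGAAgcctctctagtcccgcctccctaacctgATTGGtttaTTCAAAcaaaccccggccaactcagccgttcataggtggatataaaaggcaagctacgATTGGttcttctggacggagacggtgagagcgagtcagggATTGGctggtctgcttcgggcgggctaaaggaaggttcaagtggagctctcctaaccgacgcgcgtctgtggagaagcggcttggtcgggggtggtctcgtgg
CDCA3: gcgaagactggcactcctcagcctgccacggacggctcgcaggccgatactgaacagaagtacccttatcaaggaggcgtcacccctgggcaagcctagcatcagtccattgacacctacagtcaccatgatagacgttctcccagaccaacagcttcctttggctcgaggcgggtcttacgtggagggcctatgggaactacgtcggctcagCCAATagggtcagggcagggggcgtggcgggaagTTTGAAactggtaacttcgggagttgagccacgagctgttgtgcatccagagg
In CENPA and CDCA3 the CHR letters lie downstream of the CCAAT letters, close to the start. A match says that the letters are in the window and nothing of what is bound there.

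The larger part of the genes that fell were long genes outside the mitosis list. Of the 116 falling genes with a genomic length in RefSeq, 70 (60.3%) spanned at least 100 kb, against 18% of all 13617 measured genes with a length, and 36 (31.0%) at least 300 kb, against 3.97%. None of the 42 genes that rose spanned 100 kb. The median length was 254 kb for the 89 falling genes outside the mitosis list, 22.8 kb for the 27 falling mitosis genes, 15.8 kb for the rising genes and 28.0 kb for all genes. The limits of 100 and 300 kb were chosen after the values had been seen. With each array scaled to one median in place of quantile normalization, 25 genes of at least 100 kb were lower and 8 were higher, and 1 was higher without H526. The 70 became 4 without H128, 11 without DMS114, 20 without DMS153 and 33 without DMS53.

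FARS2, the mitochondrial phenylalanyl-tRNA synthetase, spans 522 kb. Its log2 signal ran from 7.47 through a median of 8.47 to 9.11 with C+5 and from 7.94 through 8.73 to 9.26 with A5, overlapping between the groups, and it was lower with C+5 in 9 of 9 lines. The change was -0.38 (SE 0.070, limma adjusted p = 0.016). It was -0.96 in DMS114, -0.72 in DMS53, -0.48 in DMS153 and -0.46 in H128, against -0.09 in H146.

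AGAP1, a GTPase-activating protein for Arf, spans 638 kb and had a mean log2 signal of 8.59 ± 0.60 with C+5 and 8.93 ± 0.46 with A5 (SD, n = 9 each), a change of -0.34 (SE 0.063, limma adjusted p = 0.016). A second, dim AGAP1 probe had a change of -0.06 (adjusted p = 0.49). ZNF407, a zinc finger protein gene of 468 kb, changed by -0.31 (adjusted p = 0.010) in 9 of 9 lines, and its dimmer probe by 0.01 (adjusted p = 0.89). LPP, a LIM protein of focal adhesions, spans 738 kb and changed by -0.34 (adjusted p = 0.048).

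The longest of those that fell were PTPRD, a receptor tyrosine phosphatase of 2299 kb, with a change of -0.24 (limma adjusted p = 0.017), LINGO2, a leucine-rich repeat membrane protein gene of 1276 kb, with -0.23 (adjusted p = 0.015) and GPC6, a glypican of the cell surface with a gene of 1191 kb, with -0.27 (adjusted p = 0.029). A second GPC6 probe, detected on all 18 arrays, had a change of -0.08 (limma adjusted p = 0.36). The other PTPRD probe changed by -0.06. JARID2, a subunit of Polycomb repressive complex 2, spans 276 kb and changed by -0.25 (adjusted p = 0.010) in 9 of 9 lines. ATF6, a sensor of the unfolded protein response of 198 kb, changed by -0.23 (adjusted p = 0.013), and TCF4, an E-box transcription factor of 414 kb, by -0.16 (adjusted p = 0.016). STK3, a kinase of the Hippo pathway (599 kb, -0.21, adjusted p = 0.013), and PTK2, the focal adhesion kinase (344 kb, -0.13, adjusted p = 0.041), also fell.

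Across all genes the median change fell with length above about 100 kb, and it was slightly higher for genes of 10 to 30 kb than for those under 10 kb. It was 0.0086 for the 3384 genes under 10 kb and 0.0138 for the 3732 genes of 10 to 30 kb, 0.00 for the 4052 of 30 to 100 kb, -0.02 for the 1436 of 100 to 200 kb, -0.04 for the 472 of 200 to 300 kb and -0.06 for the 541 over 300 kb. Of the last group 88.0% had a change below 0, and 36 fell, which is 6.65%, against 0.384% of the genes under 10 kb. With the genes cut into 4 groups of equal number by length, the medians were 0.01, 0.01, 0.01 and -0.02, and 73 of the 116 falling genes with a length were in the group of longest genes. The medians did not change at 2 decimals when the mitosis list was left out. The long genes were dimmer, with a median log2 signal of 7.04 over 300 kb and 7.44 under 10 kb. Among genes detected on all 18 arrays, the 143 over 300 kb had a median change of -0.11 with 27 lower, and the 1849 under 10 kb one of 0.01 with 12 lower.

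The size of the shift differed between the lines. The median change of the genes over 300 kb was -0.11 in DMS153, -0.10 in DMS53, -0.08 in DMS114, -0.07 in H128, -0.06 in H146, -0.05 in H69 and -0.02 in each of H526, H209 and H187. It was below 0 in 9 of 9 lines, as was that of the 200 to 300 kb genes, while that of the 10 to 30 kb genes was above 0 in all 9. H209, at 14.2 µM cisplatin, had a median near 0 for the 100 to 200 kb genes (0.01), as did H187 (0.00).

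**Figure D2:**
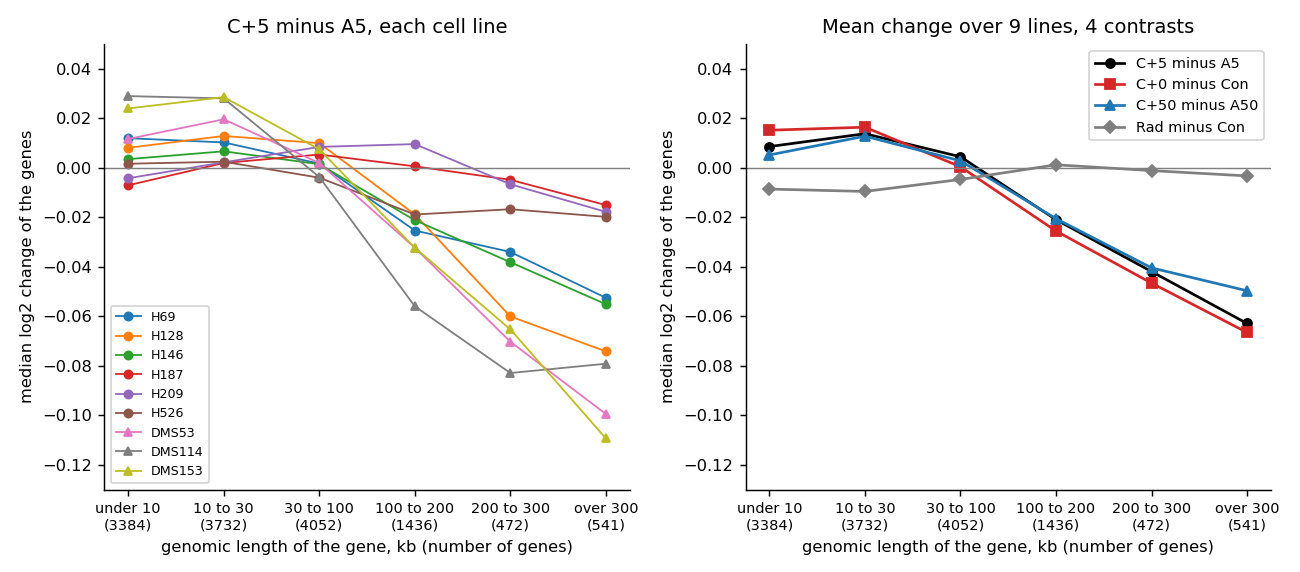
Median log2 change of genes grouped by genomic length in kb (number of genes in brackets); left, C+5 minus A5 in each of the 9 lines (circles H lines, triangles DMS lines), and right, the change averaged over the 9 lines for 4 contrasts. In the left panel every line ends below 0, between -0.02 and -0.11 over 300 kb, with H187, H209 and H526 nearest to 0, and in the right panel the 3 contrasts of cisplatin run close together while Rad minus Con stays near 0.

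The medians by length were also taken on arrays that share no sample with C+5 and A5. With C+0 against Con the genes over 300 kb had a median change of -0.07 and 29 were lower, and with C+50 against A50 it was -0.05 and 41 were lower; both were below 0 in 9 of 9 lines. With 2 Gy against Con, where no cisplatin was given, the medians from the shortest to the longest group lay between -0.01 and 0.00, and that over 300 kb was 0.00, below 0 in 6 lines. With A50 against Con, veliparib with no cisplatin, the median was 0.00 under 10 kb, -0.02 for 100 to 200 kb (below 0 in 8 lines), -0.02 for 200 to 300 kb (below 0 in 9 lines) and -0.01 over 300 kb (below 0 in 7 lines). C+0, Rad and A50 were each set against the same Con arrays. The A50 arrays also enter C+50 against A50 and A50 against Con with opposite sign. These values are set side by side with no test of their difference.

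The genes that rose included the entry to S phase. CCNE1, the cyclin E1 that activates CDK2, had a log2 signal from 7.41 through a median of 8.43 to 9.53 with C+5 and from 7.09 through 8.15 to 8.96 with A5. The groups overlapped, 7 of 9 lines were higher with C+5, and H187 and H209 were at 0.00. The change was 0.25 (SE 0.049, limma adjusted p = 0.020), with 0.58 in DMS114 and 0.42 in H69 as the highest values. A second, dim CCNE1 probe had a change of 0.04 (adjusted p = 0.64).

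DTL, the substrate receptor that directs CDT1 to a ubiquitin ligase, rose by 0.24 (SE 0.053, limma adjusted p = 0.043) in 8 of 9 lines, with 0.65 in H128 and -0.12 in H187. CDC25A, the phosphatase that frees CDK2 and CDK1, rose by 0.17 (adjusted p = 0.019) in 9 of 9 lines. PCNA, the sliding clamp of the replication fork, rose by 0.15 (adjusted p = 0.040), GINS3, a subunit of the replicative helicase, by 0.13 (adjusted p = 0.040) and MCM3, another, by 0.13 (adjusted p = 0.038). CDT1, a licensing factor, had a change of 0.20 (adjusted p = 0.052) and UNG, the uracil glycosylase, one of 0.19 (adjusted p = 0.067), which did not pass.

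Of the 54 genes of the G1/S and DNA replication list, 52 were measured; 6 rose, none fell and 46 did not pass. The median change was 0.09, against 0.00 over all genes, and it was above 0 in every line, from 0.00 in H187 to 0.17 in H128. The 6 are 11.5% of those measured, against 0.308% of all genes higher. Without H128 or without DMS114 none of the 6 kept its call (adjusted p from 0.0688 to 0.108 and from 0.0635 to 0.102), and 1 to 5 kept it without any other single line. E2F letters (TTTGGCGC, TTTCGCGC, TTTCCCGC or TTTGCCGC on either strand) were in 44.4% of the 45 windows of this list and in 16.7% of the 36 windows of the genes that rose, against 3.23% of all windows. DTL (chr1:212035498-212035797, plus strand) and CDC25A (chr3:48188368-48188667, minus strand) are shown as the 2 largest called rises of the list whose window holds them, with the E2F letters in capitals.
DTL: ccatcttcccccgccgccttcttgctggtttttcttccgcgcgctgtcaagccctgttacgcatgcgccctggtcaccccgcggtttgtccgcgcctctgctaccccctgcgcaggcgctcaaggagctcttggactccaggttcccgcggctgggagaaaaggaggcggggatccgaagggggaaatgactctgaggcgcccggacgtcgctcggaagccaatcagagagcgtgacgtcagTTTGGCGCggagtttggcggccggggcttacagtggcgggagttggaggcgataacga
CDC25A: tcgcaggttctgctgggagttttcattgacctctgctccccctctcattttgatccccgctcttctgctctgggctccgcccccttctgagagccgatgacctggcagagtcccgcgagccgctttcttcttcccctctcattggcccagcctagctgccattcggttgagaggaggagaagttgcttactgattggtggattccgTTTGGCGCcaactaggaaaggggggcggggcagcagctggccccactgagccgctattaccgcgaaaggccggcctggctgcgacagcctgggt
Both windows hold the letters TTTGGCGC once. CHR letters were in 5.56% of the windows of the genes that rose, and in none of them together with CCAAT letters. By themselves, CCAAT letters were in 50% of these windows and in 57.8% of the 45 windows of the list, against 35.4% of all windows.

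**Figure D3:**
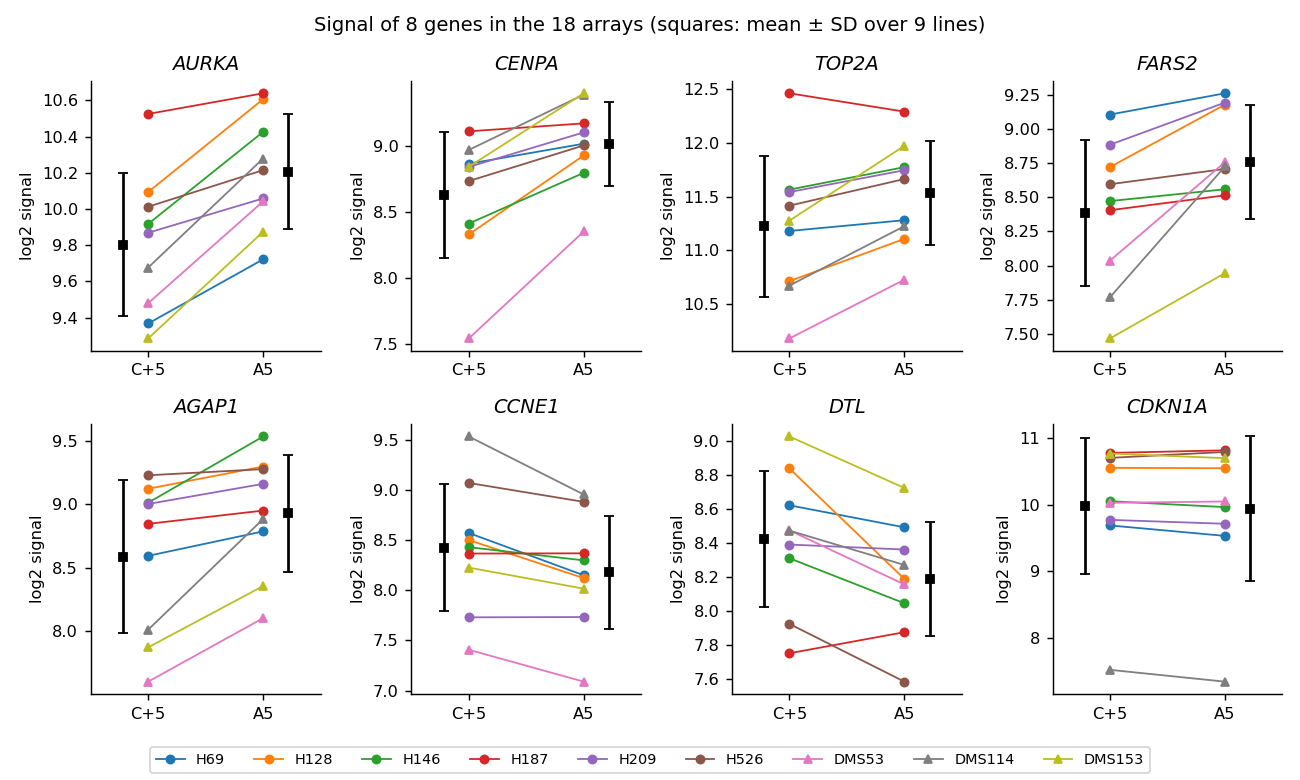
Log2 signal of 8 genes in each line with C+5 (left of each panel) and A5 (right), joined by line, with mean ± SD over 9 lines as black squares; each panel has its own scale. AURKA, CENPA, TOP2A, FARS2 and AGAP1 lie lower with C+5 in nearly every line, CCNE1 and DTL higher in most, and CDKN1A at about the same level, with DMS114 far below the other lines.

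Other genes rose outside that list. DUSP3, a dual-specificity phosphatase, rose by 0.20 (limma adjusted p = 0.013) in 9 of 9 lines, from 0.04 in H187 to 0.41 in H128. TRIB1, a pseudokinase that recruits a ubiquitin ligase, rose by 0.21 (adjusted p = 0.027) in 9 of 9 lines, and ANKRD10, an ankyrin repeat gene, by 0.23 (adjusted p = 0.019) in 8. SERTAD1, which binds CDK4, rose by 0.18 (adjusted p = 0.048), MIDN, midnolin, by 0.17 (adjusted p = 0.025) and GRM2, a metabotropic glutamate receptor, by 0.19 (adjusted p = 0.043). AUNIP, a partner of aurora A, rose by 0.18 (adjusted p = 0.027) in 9 of 9 lines. GPN2, a GTPase, rose by 0.20 (adjusted p = 0.013) on its brighter probe, while its other probe had a change of -0.10 (adjusted p = 0.11). FAM72B, whose near-identical copies a probe may not tell apart, changed by -0.29 (adjusted p = 0.0056).

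Genes of the p53 response did not pass. Of 29 measured p53 targets, 0 were called. Over all genes 0.308% were called higher and 0.858% lower, so 0 of 29 says little. At an unadjusted p under 0.05, 4 were higher (13.8%, against 7.43% of all genes) and 0 were lower (against 7.84%). The median change of the list was 0.03. CDKN1A, the inhibitor p21 of the cyclin-dependent kinases, had a mean log2 signal of 9.98 ± 1.01 with C+5 and 9.94 ± 1.08 with A5 (SD, n = 9 each), a change of 0.05 (SE 0.031, limma adjusted p = 0.61). MDM2, the ubiquitin ligase of p53, had a change of 0.01 (adjusted p = 0.92) at a log2 signal near 7, where probes are dim. PMAIP1, the BH3 protein NOXA, had a change of 0.18 (adjusted p = 0.054) and PIDD1, a death domain protein, one of 0.18 (adjusted p = 0.13).

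The repair lists are set beside all genes, of which 0.308% were called higher and 0.858% lower. PARP1 had a mean log2 signal of 11.55 ± 0.51 with C+5 and 11.54 ± 0.47 with A5 (SD, n = 9 each), a change of 0.01 (limma adjusted p = 0.96), and PARP2 one of 0.07 (adjusted p = 0.45). Of 22 measured genes of base excision repair and PARP, NEIL3, a DNA glycosylase, was the only 1 called: it fell by 0.20 (SE 0.032, adjusted p = 0.010) in 9 of 9 lines. Of 25 genes of translesion synthesis and checkpoints, RAD9A, a subunit of the checkpoint clamp, was the only 1 called, with a rise of 0.16 (adjusted p = 0.045). NEIL3 is 4.55% of its list and RAD9A 4% of its list. None of 25 nucleotide excision repair genes, 32 of homologous recombination and the Fanconi anaemia pathway, 9 of end joining and 5 of mismatch repair were called in limma. At an unadjusted p under 0.05, 2 were lower and 1 higher in nucleotide excision repair, 2 lower and 10 higher in homologous recombination and the Fanconi anaemia pathway, 1 lower in end joining and 2 higher in mismatch repair. The 10 are 31.2% of the 32 measured, against 7.43% of all genes higher at that p, and the median of that list was 0.02, above 0 in 9 of 9 lines. In translesion synthesis and checkpoints, 1 was lower and 5 (20%) were higher at that p. Base excision repair and PARP had 1 lower and 1 higher. The lists do not hold every repair gene, and 2 long genes outside them were called lower. SPIDR, a scaffold of homologous recombination (475 kb), changed by -0.20 (limma adjusted p = 0.040). BABAM2, a subunit of the BRCA1-A complex (450 kb), changed by -0.17 (limma adjusted p = 0.048), and its other probe by -0.15 (adjusted p = 0.13). BRCA1 had a change of 0.02 (adjusted p = 0.88), ERCC1 one of -0.06 (adjusted p = 0.30) and PRKDC, the catalytic subunit of DNA-PK, one of 0.00 (adjusted p = 0.98).

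Among the stress lists, the immediate early genes had a median change of 0.08 over 22 measured members, with 12 higher at an unadjusted p under 0.05, which is 54.5% against 7.43% of all genes, and 0 called in limma. JUN had a change of 0.13 (limma adjusted p = 0.12) and ATF3, of the ATF4 list, one of 0.22 (adjusted p = 0.064). No member was called in the lists of histones, platinum transport, ATF4 and the unfolded protein response, NRF2 and glutathione, metallothioneins, heat shock, the BCL2 family, interferon-stimulated genes, cholesterol synthesis, splicing factors, cytosolic ribosomal proteins, or in the 5 lists of cell type markers, whose medians lay between -0.02 and 0.03. Over all genes 0.308% were called higher and 0.858% lower, so 0 called in such short lists says little. At an unadjusted p under 0.05, 7.84% of all genes were lower and 7.43% higher. At that p the splicing factors had 5 lower and 6 higher of 38 measured. The BCL2 family had 4 of 15 higher (26.7%) and heat shock 3 of 16 (18.8%), both with 0 lower. The ATF4 list had 5 of 25 higher (20%) and 1 lower, and platinum transport and metallothioneins had 0 each way. Some genes of these classes that the lists do not hold were called. H2AC19, a histone, changed by -0.12 (limma adjusted p = 0.048) and GSTM3, a glutathione transferase, by 0.17 (adjusted p = 0.041). SREK1, a splicing regulator, rose, and ATF6 fell, as given above. The splicing factors RBMX and SRSF3 had changes of -0.09 (limma adjusted p = 0.44) and -0.10 (adjusted p = 0.28). MSI2, an RNA-binding protein gene of 446 kb, had one of -0.21 (adjusted p = 0.054), and HACL1 one of -0.11 (adjusted p = 0.17).

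**Figure D4:**
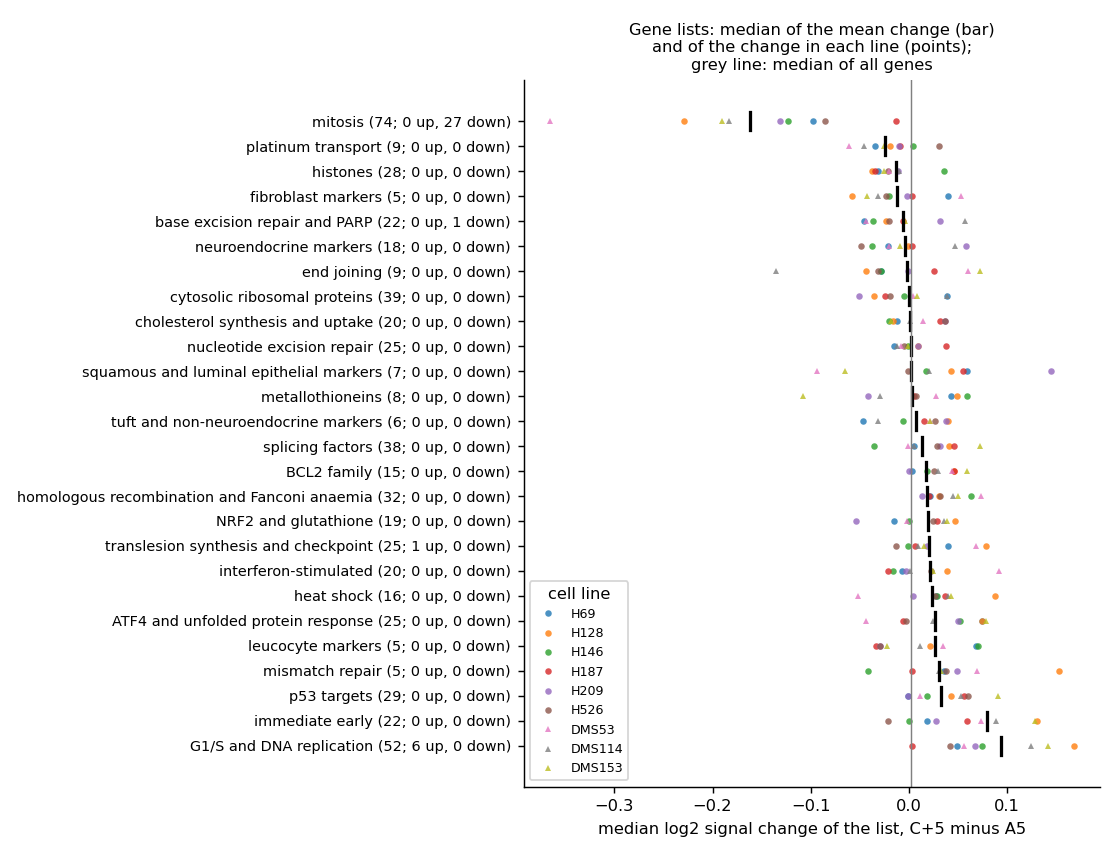
Median log2 change, C+5 minus A5, of each of 26 gene lists (bar: median over the genes of the mean change; points: median in each line), with the number of measured genes and of genes called up and down; the grey line is the median of all genes. The mitosis list stands at -0.16 and the G1/S and DNA replication list at 0.09, with the immediate early genes at 0.08 next to it.

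The lines differed in how far they moved. The number of genes that changed by more than 1.5-fold in a single line was 31 in DMS53, 17 in DMS153, 14 in DMS114, 6 in H128 and 1 or 2 in each of the other lines. A direct test of the DMS lines against the H lines called 5 probes, 1 higher (0.00394% of those tested) and 4 lower (0.0157%). Both LPP probes were among them: the brighter changed by -0.75 ± 0.25 in the DMS lines (SD, n = 3) and by -0.14 ± 0.17 in the H lines (SD, n = 6), a difference of -0.61 (limma adjusted p = 0.035). A probe of TSPYL2, a nucleosome assembly protein homologue, changed by 0.41 ± 0.06 in the DMS lines and 0.05 ± 0.03 in the H lines, a difference of 0.36 (adjusted p = 0.035). The other 2 probes have no gene name here. This count fell to 0 without H69, H146, H187, H526 or DMS114, to 2 without H209 and to 3 without DMS53 or DMS153. No probe had a slope on the log2 dose of cisplatin that passed the test, with 1700 at an unadjusted p under 0.05 and a lowest adjusted p of 0.16 for COPRS, and dose cannot be told apart from the line, since each line had its own.

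Whether 5 µM veliparib changed the response to cisplatin was tested directly, as the difference of C+5 against A5 from C+0 against Con. No probe passed in limma; 1281 had p under 0.05 before adjustment, with a lowest adjusted p of 0.33. A model of 1 difference per line called 1 probe, NEK2, a centrosome kinase, with a difference of 0.29 (adjusted p = 0.028). For AURKA the difference was -0.05 (95% interval -0.21 to 0.11), for CENPA 0.15 (-0.02 to 0.33), for FARS2 -0.01 (-0.21 to 0.18) and for CCNE1 0.03 (-0.11 to 0.17). DUSP3 had a change of 0.06 with C+0 against Con and a difference of 0.15 (95% interval 0.03 to 0.26, adjusted p = 0.92). Equal responses were not shown by these intervals.

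The 2 contrasts share no array. C+0 against Con called 33 genes higher (0.242%) and 117 lower (0.858%). Of the 117 genes lower with C+5, 55 were also lower with C+0, which is 47.0% of each list, and 116 had a change below 0 there. Of the 42 genes higher with C+5, 8 were also higher with C+0, which is 19.0% of them and 24.2% of the 33, and 41 had a change above 0 there. Over all genes, 47.5% had a change below 0 with C+0 and 52.5% one above 0. No gene was called in opposite directions. The mitosis list had 33 members lower with C+0 and a median of -0.21.

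With veliparib at 50 µM, C+50 against A50 called 120 genes higher (0.88%) and 161 lower (1.18%). Of the genes lower with C+5, 51 were lower here too (43.6% of the 117 and 31.7% of the 161), and of those higher, 13 (31.0% of the 42 and 10.8% of the 120). A change below 0 was found here for 116 of the 117, and one above 0 for 42 of the 42. The mitosis list had 10 members lower and a median of -0.07, and the median of that list with A50 against Con was -0.26. The test of C+5 against A5 less C+50 against A50 called no probe, with 965 at an unadjusted p under 0.05 and a lowest adjusted p of 1.00. AURKA had a change of -0.22 with C+50 and a difference of -0.18 (95% interval -0.32 to -0.04), TOP2A one of -0.07 and a difference of -0.24 (-0.41 to -0.07), and FARS2 one of -0.37 and a difference of -0.01 (-0.21 to 0.19); the adjusted p was 1.00 for all 3.

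**Figure D5:**
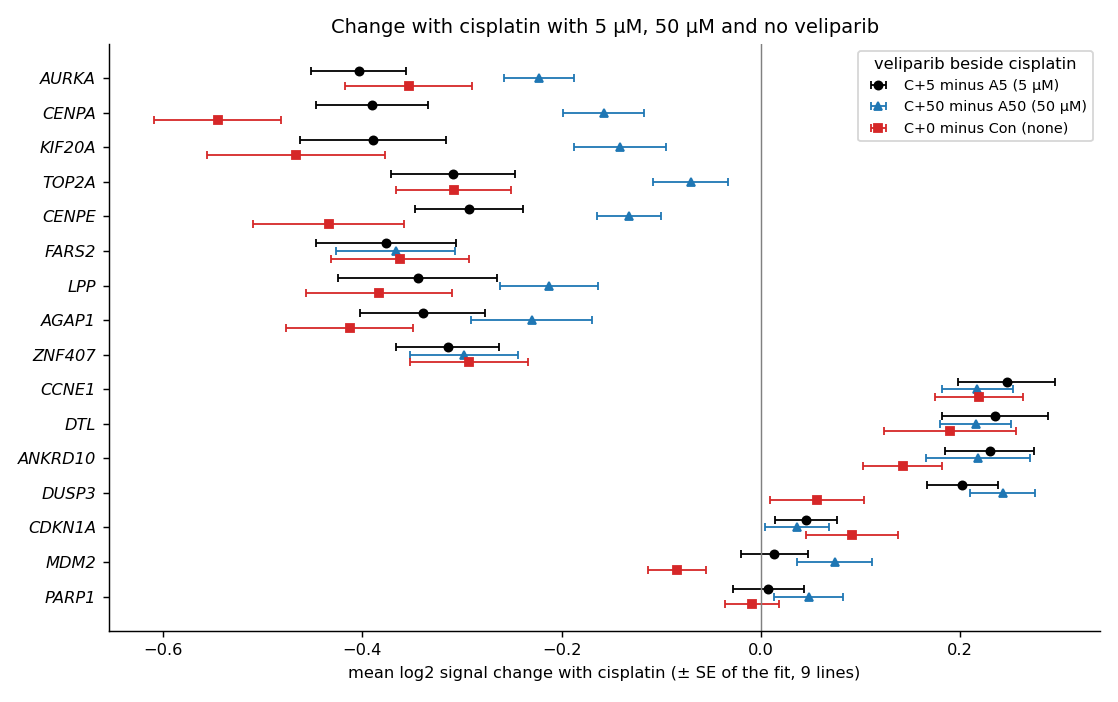
Mean log2 change with cisplatin of 16 genes over 9 lines, with C+5 minus A5 (black circles), C+50 minus A50 (blue triangles) and C+0 minus Con (red squares); bars are standard errors of the fit. For the mitotic genes from AURKA to CENPE the blue triangles lie closest to 0, between -0.22 and -0.07, while for FARS2 and ZNF407 the 3 symbols lie together.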

How the data were processed

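RNA of 9 SCLC lines under 7 conditions was hybridised to Illumina HT-12 arrays, 1 per line and condition. The authors deposited bead intensity values before normalization, exported from GenomeStudio 2010.3, with a detection p-value per probe; whether background was subtracted is not given in the sources used here, and the sources differ on the length of exposure. A table of the authors' normalized intensity was used as an alternative. Depth has no equivalent on arrays, so the number of lines limits the precision.

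The intensities were quantile normalized over all 63 arrays and taken to log2 with limma 3.58.1 in R 4.3.3 (package data.table, version 1.17.8). Probes with detection p under 0.05 on at least 4 of the 18 arrays were fitted with lmFit and eBayes, each line being a fixed block, and p-values were adjusted by Benjamini-Hochberg over 25399 probes, with calls at adjusted p under 0.05. Differences between contrasts used the same model. A gene took its probe of highest mean signal. Figures were drawn with matplotlib 3.10.9 in Python 3.11.15. The fit was tested on simulated data.

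The pairing comes from the cell line: deviations of the 2 arrays of a line correlated at 0.962 to 0.980, against -0.389 to 0.136 between lines, and 18 of 18 arrays matched their own line best. Named genes were the 15 largest falls and 15 largest rises among called genes moved the same way in at least 8 lines, up to 6 members of each list and a fixed set of genes; CCNE1, further members of the lists and long genes below these were chosen after their values were seen. The comparison and the lists were chosen with earlier results of these data known. Gene lengths and promoters come from RefSeq, GRCh38.p14; promoter shares were set against all windows of the table because fewer than 80% of the measured genes had one. Alternatives were other normalizations, filters, variance settings, fits without the block and leaving out each line.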

Additional observations from a re-analysis of the deposited data

Results flagged for a closer look

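AUNIP changed by 0.49 in DMS153 and by 0.04 to 0.18 in the other 8 lines, a gap large for the range of 9 values; it was the only flag among 53 sets of 9 values looked at, and chance flags about 1 in 20. The response of 5 probes differed between the DMS and the H lines in a direct limma test (adjusted p = 0.035 for each). The differences, DMS minus H, were -0.609 and -0.443 for the probes of LPP, 0.361 for TSPYL2, and -0.386 and -0.444 for probes with no gene name here.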

How the results depend on the processing

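The 210 called probes for C+5 against A5 became 1 under neqc, a probe of PRELID3A, 137 with all 63 arrays in the fit, 0 with no variance moderation (2750 at an unadjusted p under 0.05), 0 with no replicate block (29 at an unadjusted p under 0.05) and 0 at the study's p under 0.01 with 1.5-fold, while median scaling gave 458. The 27 mitosis genes became 0, 12, 0 and 0, and the 70 genes of at least 100 kb 0, 25, 0 and 0, under neqc, median scaling, no moderation and no replicate block. The median of the genes over 300 kb was -0.127 under neqc. Leaving out 1 line gave 21 to 307 probes, 5 to 36 mitosis genes, 4 to 101 genes of at least 100 kb and 0 to 6 probes for DMS against H lines; the lowest 3 counts for the first were without H128, DMS114 and DMS153. The last count was 0 under neqc, median scaling and a variance trend, and 1 with no moderation. One difference per line gave 1 probe for C+5 against A5 less C+0 against Con. The cause was not tested. None of the 159 called genes reversed in direction under neqc or median scaling, and 83 kept the call under median scaling. None reversed under the other runs either, but most of those runs could hardly show a reversal. Other filters, other variance settings, all 63 arrays in the fit and no replicate block leave the change of a gene as it is. Most called genes moved the same way in nearly every line, so leaving out a line could hardly reverse them. The genes of at least 100 kb, the 300 kb limit and the medians were added after seeing the data. Dim probes near background limit what could be measured.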
